A study of Mus musculus with 12 samples.

Results

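Interferon-stimulated genes are the genes that cells switch on when an interferon binds its receptor, and 47 of them, chosen by symbol and without the guanylate-binding protein (Gbp) family, were followed across 12 mouse livers. All 47 were found in the transcript tables, among 31114 genes in all. All mice were of the hFIX-R29X hemophilia B line. Their own F9 is missing, and they bear a minigene of human factor IX (FIX) with the nonsense mutation R29X, driven by the human transthyretin promoter, which is active mainly in hepatocytes. The mice were 8 to 14 weeks old, and each group held 2 females (replicates 1 and 2) and 2 males (replicates 3 and 4). One group of 4 received Dulbecco's phosphate-buffered saline (DPBS) alone. Another received 15 mg/kg of Control-GalNAc-ASO, a scrambled antisense oligonucleotide (ASO), and the third received 10 mg/kg of Upf3b-GalNAc-ASO, which targets the mRNA of the nonsense-mediated decay factor Upf3b. GalNAc is a sugar that hepatocytes take up through the asialoglycoprotein receptor. Each mouse had 6 doses 5 days apart and the livers were taken 48 h after the last. Because the ASO doses differed, sequence and dose cannot be told apart where the ASO groups are compared.

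Type I interferons bind Ifnar1 and Ifnar2, and the kinases Jak1 and Tyk2 then pass the signal to a complex that holds Stat2 and Irf9 and binds the interferon-stimulated response element (ISRE) in promoters. Interferon gamma has a receptor of its own, signals through Jak1 and Jak2, and reaches promoters at the gamma-activated site (GAS). The genes reached in this way sense viral RNA, block viral replication, present peptides on MHC class I, restrain intracellular parasites or feed back on the pathway, and hepatocytes as well as the immune cells of the liver carry the receptors.

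Estimated read counts totalled 17642996 to 20387682 in the 8 reference livers and 13277892 to 17054313 in the Upf3b-ASO livers. Levels are given as counts-per-million values (CPM) after TMM scaling, which corrects for library composition, and groups were compared by edgeR's quasi-likelihood test with sex as a covariate and Benjamini-Hochberg adjustment over 8846 genes. A gene was called at an adjusted p below 0.05. The target Upf3b was at 0.651 to 1.58 CPM in the Upf3b-ASO livers, 7.93 to 12 in the control ASO livers and 9.38 to 13.4 in the DPBS livers. Control ASO replicate 3, a male, stood apart from its group, and leaving it out raised the genes called higher in the Upf3b-ASO livers from 384 to 976. Counts of genes called against control ASO are therefore also given without it where they changed. The hepatocyte markers summed to 30498 to 74772 transcripts-per-million (TPM) in the Upf3b-ASO livers and 41681 to 85485 in the DPBS livers. The samples were whole livers, in which fewer cells of a type and less RNA per cell cannot be told apart.

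The sequences below are shown because the groups are defined by the ASOs, and because several members share a promoter motif. The study's list of parent ASOs gives the following 16-base sequences, with the central 10 DNA bases of the gapmer in capitals and the modified wings of 3 bases in lower case. The list does not state that the GalNAc conjugates carry the same bases.
control: ggcCAATACGCCGtca
Upf3b: ggaTATAGATGTAacg

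Promoter windows, from 250 bases before to 50 bases after the annotated start, came from RefSeq on GRCm38.p6 and were found for 35 of the 47 members. The windows were searched for an ISRE core, GAAANNGAAA on either strand, and a GAS core, TTCNNNGAA, which reads the same on both strands, and overlapping matches were counted. An ISRE core was present in 18 of 35 members (51.4%) and in 3.99% of the 27025 genes with a window. A GAS core was present in 13 of 35 (37.1%) and in 9.55% of all. Both cores were present in 7 of 35 members (20%) and in 0.614% of all genes with a window. The following stretches, written on the strand of the gene with both cores in capitals, show parts of the windows of the antiviral genes Ifit1, Ifit3 and Isg15 and then those of the immunity-related GTPases Tgtp1, Tgtp2, Igtp and Irgm2 and of Bst2.
Ifit1 (chr19:34640770-34640828, plus strand): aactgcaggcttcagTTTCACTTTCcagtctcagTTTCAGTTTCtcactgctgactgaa
Ifit3 (chr19:34583358-34583431, plus strand): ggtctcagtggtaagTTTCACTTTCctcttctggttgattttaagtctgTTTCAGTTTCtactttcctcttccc
Isg15 (chr4:156200860-156200911, minus strand): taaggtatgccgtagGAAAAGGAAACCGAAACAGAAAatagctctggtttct
Tgtp1 (chr11:48992299-48992349, minus strand): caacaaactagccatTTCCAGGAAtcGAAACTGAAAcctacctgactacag
Tgtp2 (chr11:49064258-49064308, minus strand): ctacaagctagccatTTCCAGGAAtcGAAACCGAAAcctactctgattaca
Igtp (chr11:58199496-58199546, plus strand): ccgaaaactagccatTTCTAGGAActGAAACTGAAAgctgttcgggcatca
Irgm2 (chr11:58214887-58214937, plus strand): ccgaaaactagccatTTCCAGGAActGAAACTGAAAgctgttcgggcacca
Bst2 (chr8:71537572-71537623, minus strand): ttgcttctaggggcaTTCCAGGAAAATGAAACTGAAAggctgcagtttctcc

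The 4 GTPase windows had the same arrangement, a GAS core followed after 2 bases by an ISRE core. In Bst2 the GAS core ran into the first of 2 overlapping ISRE cores, and Isg15 held 3 overlapping ISRE cores that began between 78 and 66 bases before the start. Ifit1 and Ifit3 each held 2 separate ISRE cores and no GAS core. Among members with a window that were tested, 9 of 19 called higher in the Upf3b-ASO livers against either reference held an ISRE core, as did 7 of 13 not called. A match describes these letters only. For Bst2 and Irgm2 the 20 bases checked after the RefSeq start were not found in the GENCODE transcripts of the gene, so the annotated starts differ between sources. Ifi27, Oas2, Mx1, Mx2, Usp18, Dhx58, Rtp4, Iigp1, Tap2, Parp9, Parp14 and Zbp1 had no entry.

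**Figure D1:**
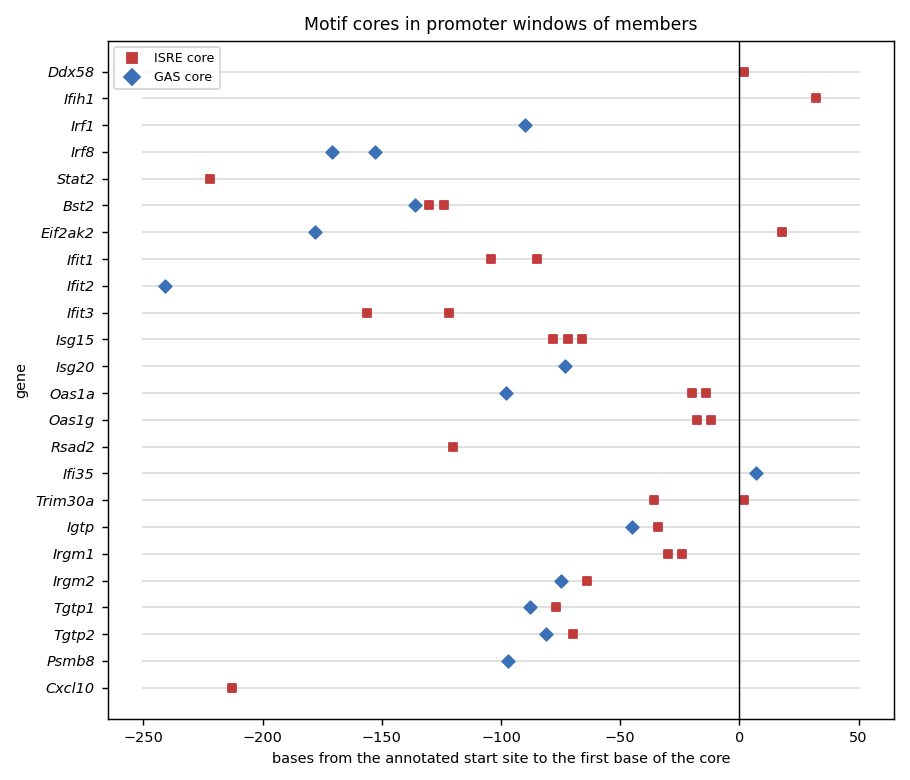
Positions of ISRE cores (squares) and GAS cores (diamonds) in the promoter windows of the 24 members with a match, in bases from the annotated start site (vertical line at 0). The cores of Tgtp1, Tgtp2, Igtp and Irgm2 lie side by side, with the GAS core 11 bases before the ISRE core.

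In the livers of mice given DPBS, the members differed widely in level. Per transcript length, Ifi27 (191 TPM, mean of 4), the GTPase Iigp1 (189 TPM) and the membrane protein Bst2 (145 TPM) were highest, and their ranges overlapped in that order. The next, the immunoproteasome subunit Psmb8, was at 32.8 TPM and did not overlap with Bst2. Below it each member overlapped with its neighbour in the order, down to the oligoadenylate synthetases and Mx1, at 0.78 TPM (Oas2) to 1.97 TPM (Oas1a). Of the 47 members, 42 reached a TPM of 5 in at least 4 livers and were tested. Oas1a, Oas1g, Oas2, Mx1 and Isg20 did not. Among the 42, Ifit2, Ifi44, Oasl2, Mx2, Rsad2, Tgtp1, Tgtp2 and Cxcl10 reached that level in fewer than 4 of the 8 reference livers. These 8 members therefore passed the filter only with the Upf3b-ASO livers counted.

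The members as a whole were higher in the Upf3b-ASO livers than in either reference group. The median of the 47 members, as the log2 ratio of a liver's CPM to the DPBS mean, was 0.98, 0.83, 0.54 and 0.70 in the Upf3b-ASO livers. It was 0.46, 0.20, 0.05 and -0.13 in the control ASO livers and 0.02, 0.32, -0.35 and -0.09 in the DPBS livers. Every Upf3b-ASO liver thus lay above every reference liver, while the median over all tested genes stayed between -0.04 and 0.00 in each of the 12 livers. Between 43 and 47 of the 47 members exceeded the DPBS mean in each Upf3b-ASO liver. In the reference livers that number ran from 1 (DPBS replicate 3, a male) to 44 (DPBS replicate 2 and control ASO replicate 1, both females).

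**Figure D2:**
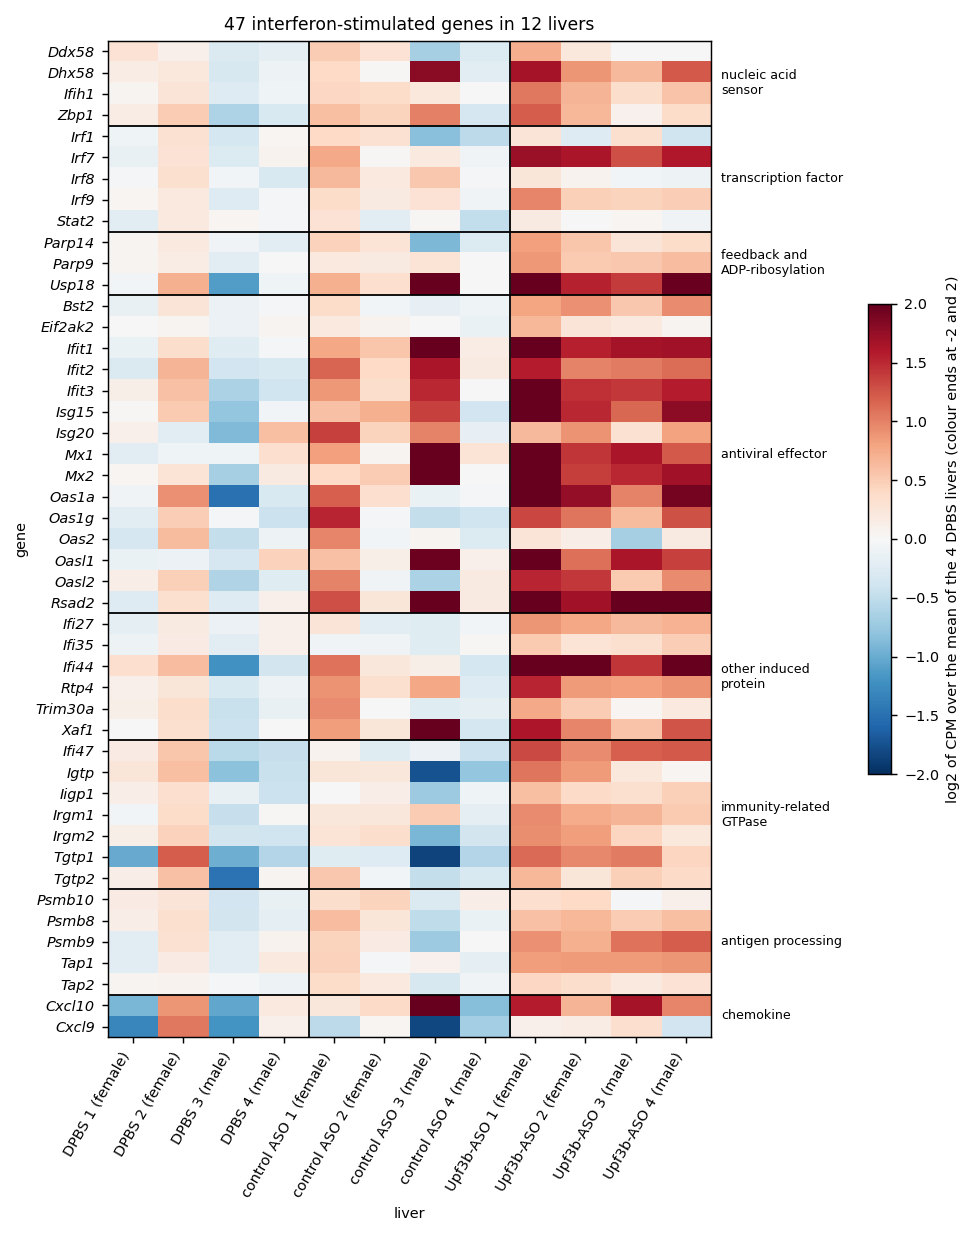
Each cell is the log2 of the CPM of 1 member (row) in 1 liver (column) over the mean of the 4 DPBS livers, with colour ending at -2 and 2. Rows are grouped by role. The 4 Upf3b-ASO columns are mostly red, and control ASO replicate 3 holds both strong red and strong blue rows.

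Against control ASO, 15 of the 42 tested members were called higher (35.7%), beside 4.34% of all tested genes. None was called lower, beside 5.95% of all; no member was lower at an unadjusted p below 0.05 either, nor called lower by DESeq2 or by limma. Against DPBS, 21 were called higher (50%), beside 3.57% of all, and none lower by any of these tools or at an unadjusted p below 0.05, beside 5.36% of all. With a filter on counts that kept all 47 members, the numbers were also 15 and 21, beside 392 and 339 of 14027 genes, but the members differed. Against control ASO, Tgtp1 lost its call and Oas1a gained one. Against DPBS, Ifi35 and Usp18 lost theirs, and Mx1 and Oas1a gained one each. Fitted with 2 groups alone, 9 were called higher against control ASO, beside 1.66% of all tested genes, and 34 against DPBS, beside 13.4%. In the fit of all 12 livers, leaving out the 8 members that passed only with the Upf3b-ASO livers gave 12 of 34 against control ASO and 19 of 34 against DPBS. With the filter on counts, the median log2 fold change over all 47 was 0.55 against control ASO and 0.76 against DPBS. The medians of all genes tested with it were -0.03 and 0.00. The comparisons share the Upf3b-ASO livers and are not independent.

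Without control ASO replicate 3, 29 of the 42 members were called higher against control ASO (69%), beside 11% of all tested genes. These held all 15 called with it. The 14 added were Dhx58, Ifit1, Ifit3, Irf9, Irgm1, Isg15, Mx2, Oasl1, Parp14, Psmb8, Rsad2, Rtp4, Usp18 and Xaf1. By role, the number called went from 1 to 2 of 4 nucleic acid sensors, from 1 to 2 of 5 transcription factors, from 1 to 3 of 3 feedback and ADP-ribosylation genes, from 3 to 5 of 6 other induced proteins and from 2 to 3 of 5 antigen processing genes. All 4 Upf3b-ASO livers lay above all 4 control ASO livers for 13 of the 42 (31%; 7.74% of all tested genes), above the 3 without replicate 3 for 22 (52.4%; 13% of all), and above all 4 DPBS livers for 27 (64.3%; 10.4% of all). Between control ASO and DPBS no member was called in either direction. Of all tested genes 0% were called higher and 0.0113% lower. At an unadjusted p below 0.05, 8 members were higher and none lower in the control ASO livers. Of 8846 tested genes, 617 passed that level in either direction, 358 of them higher. Without replicate 3 there were 2 members, beside 901 of all tested genes in either direction, 495 of them higher. DESeq2, which gave an adjusted p for 38 members, called none, nor did limma.

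**Figure D3:**
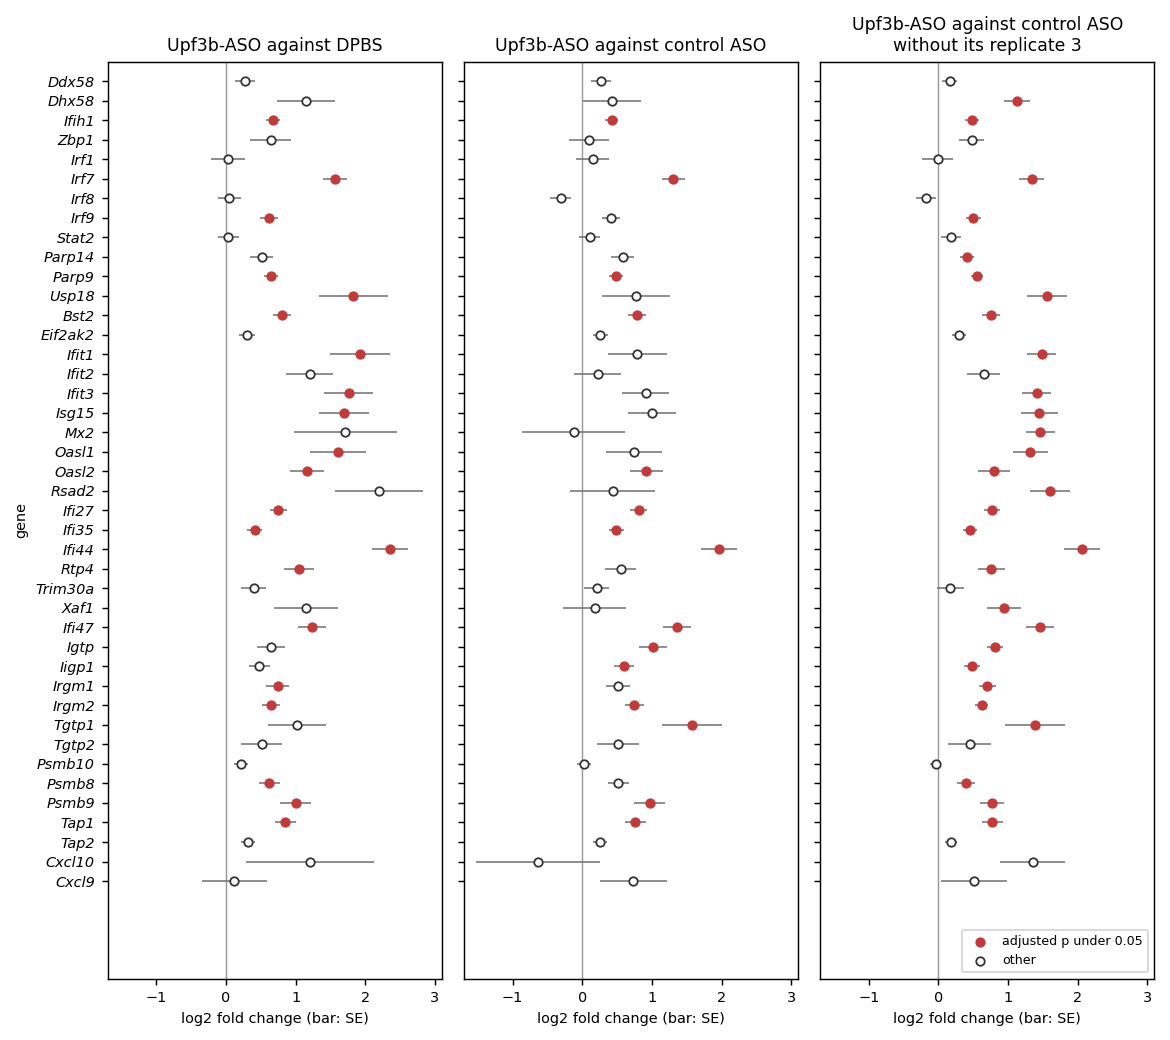
Log2 fold change (point) and its standard error (bar) of the 42 tested members in the Upf3b-ASO livers against DPBS, against control ASO and against control ASO without its replicate 3. Filled points were called at an adjusted p below 0.05, numbering 21, 15 and 29.

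The interferons themselves were close to the limit of detection. Of 9 interferon genes searched, Ifna1, Ifne and Ifnl3 had no reads in any liver, and no gene had more than 16 estimated reads in any liver. Ifnb1, which encodes interferon beta, had 0 reads in every DPBS and every Upf3b-ASO liver. In the control ASO livers it had 0 to 6 reads (mean 0.108 CPM, highest 0.432). Ifng, which encodes interferon gamma, had 0 to 2 reads per liver. Their summed level was 0.827 to 1.15 TPM in the DPBS livers, 0.537 to 1.78 in the control ASO livers and 0.52 to 1.32 in the Upf3b-ASO livers. At this depth no difference between groups was detectable for them. Of 19 receptor and signalling genes, 16 were tested, none was called higher against either reference, and Irf5, a transcription factor of the pathway, was called lower against both (log2 fold change -0.67, SE 0.19, edgeR adjusted p = 0.045 against control ASO, and -0.85, SE 0.19, adjusted p = 0.017 against DPBS). Without control ASO replicate 3, 1 was called higher against control ASO and 2 lower, Irf5 and the kinase gene Jak1 (log2 -0.28, adjusted p = 0.011), beside 11% and 13.5% of all tested genes.

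The transcription factors of the list did not move together. Irf7, which drives type I interferon genes and is itself induced, was at 24.5, 33.3, 22.6 and 28.8 CPM in the DPBS livers, 46.2, 27.8, 31.4 and 26.0 in the control ASO livers, and 89.9, 84.7, 66.4 and 82.5 in the Upf3b-ASO livers. Its Upf3b-ASO livers all lay well above the other 8. The log2 fold change came to 1.31 (SE 0.17, with an edgeR adjusted p = 0.0011) against control ASO and 1.56 (SE 0.17, adjusted p = 3.9e-04) against DPBS. Irf9, the DNA-binding partner of Stat2, was at 34.7, 38.5, 28 and 33.2 CPM with DPBS, 43.2, 38.0, 40.9 and 32.1 with control ASO and 66.3, 46.5, 45.9 and 47.4 with Upf3b-ASO. Its Upf3b-ASO livers did not overlap with the others, and the difference from DPBS was called (log2 0.62, SE 0.13, adjusted p = 0.012) while that from control ASO was not (0.41, SE 0.13, adjusted p = 0.061). Stat2, Irf1 and Irf8 overlapped between all groups, with log2 fold changes of -0.31 to 0.15 against control ASO and 0.03 to 0.05 against DPBS.

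Of 4 nucleic acid sensors, 1 was called. Ifih1, which encodes the sensor of long double-stranded RNA MDA5, was at 62.5, 72.3, 50.4 and 56.8 CPM with DPBS, 80.4, 78.4, 70.2 and 60.8 with control ASO and 126, 96.9, 77.1 and 89.9 with Upf3b-ASO. The Upf3b-ASO livers cleared all DPBS livers, but Upf3b-ASO replicate 3 lay below control ASO replicates 1 and 2. The log2 fold change came to 0.42 (SE 0.10, with an edgeR adjusted p = 0.028) against control ASO and 0.68 (SE 0.10, adjusted p = 0.0026) against DPBS. Ddx58, which encodes the sensor RIG-I, differed by 0.27 on the log2 scale from both references (SE 0.14, adjusted p = 0.24 and 0.3). Dhx58, a regulator of both sensors also known as LGP2, was not called against either reference over all livers. Control ASO replicate 3 stood at 31.9 CPM for it and the rest of its group at 7.89 to 12, and without that liver it was called against control ASO (1.13 on the log2 scale, edgeR adjusted p = 0.0022). Of 24 other genes of nucleic acid sensing, 16 were tested and 1, the kinase Ikbke, was called higher against control ASO (log2 1.08, SE 0.22, adjusted p = 0.011). Of all tested genes, 4.34% were called higher there. Without control ASO replicate 3, 5 of the 16 were called higher, with Trim25, Samhd1, Adar and Traf3 added at log2 0.37 to 0.45. In that fit 1 was called lower, Rnaseh2c (-0.28, adjusted p = 0.018), beside 11% of all tested genes called higher and 13.5% lower. None of the 16 was called against DPBS.

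Of the 15 antiviral effectors, 10 were tested, and 6 were called higher against DPBS and 2 against control ASO. Without control ASO replicate 3, the latter number rose to 8. Ifit1, which binds viral RNA that lacks a proper cap, was at 8.22, 11.5, 7.64 and 8.74 CPM with DPBS and 53.6, 26.6, 28.5 and 28.9 with Upf3b-ASO. In the control ASO livers it was at 15.4, 13.3, 41.8 and 9.98 CPM, the third value above all but 1 of the Upf3b-ASO livers. The log2 fold change came to 1.93 (SE 0.43, with an edgeR adjusted p = 0.02) against DPBS, 0.79 (SE 0.42, adjusted p = 0.25) against control ASO, and 1.48 (adjusted p = 7.3e-04) against control ASO without replicate 3. Ifit3, its partner, was at 13.5, 18.7, 8.06 and 9.48 CPM with DPBS, 22.6, 15.8, 35.3 and 12.5 with control ASO and 61.9, 34.2, 33.2 and 37.1 with Upf3b-ASO. Control ASO replicate 3 again lay within the range of the Upf3b-ASO livers, and Ifit3 had a log2 fold change of 1.76 against DPBS (SE 0.35, adjusted p = 0.011) and 0.91 against control ASO (SE 0.34, adjusted p = 0.11). Ifit3 shares much of its sequence with Ifit3b, so the division of reads between them is uncertain.

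Isg15, a ubiquitin-like protein that is conjugated to other proteins, was at 2.45, 3.46, 1.42 and 2.33 CPM with DPBS, 3.61, 3.96, 6.20 and 1.85 with control ASO and 10.9, 6.84, 5.33 and 8.34 with Upf3b-ASO. It was called against DPBS (log2 1.70, SE 0.36, edgeR adjusted p = 0.014) and not against control ASO (1.0, SE 0.35, adjusted p = 0.091). Usp18 removes Isg15 from proteins and damps the type I receptor, and is counted here with the feedback genes. It was at 6.71, 11.4, 3.20 and 6.57 CPM with DPBS, 11.4, 8.77, 31.4 and 6.99 with control ASO and 33.7, 20.2, 18.3 and 27.4 with Upf3b-ASO. Control ASO replicate 3 fell among the Upf3b-ASO livers for Usp18 too. The log2 fold changes were 1.83 (SE 0.50, adjusted p = 0.047) against DPBS, 0.77 (SE 0.49, adjusted p = 0.33) against control ASO and 1.56 (adjusted p = 0.0033) without that liver.

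Oasl1 and Oasl2 belong to the oligoadenylate synthetase-like proteins. Oasl1 was at 6.51, 6.57, 5.63 and 9.75 CPM with DPBS, 10.7, 7.69, 27.8 and 7.65 with control ASO and 30.4, 15.3, 22 and 18.4 with Upf3b-ASO. It was called against DPBS (log2 1.61, SE 0.40, edgeR adjusted p = 0.032) but not against control ASO (0.74, SE 0.40, adjusted p = 0.25). The call against DPBS held in 0 of 8 fits that left out 1 liver. Oasl2 was at 4.06, 5.17, 2.43 and 3.13 CPM with DPBS, 7.32, 3.51, 2.38 and 4.18 with control ASO and 10.6, 9.88, 5.33 and 7.15 with Upf3b-ASO. Here control ASO replicate 3 was the lowest of its group, and both differences were called (log2 0.92, SE 0.24, adjusted p = 0.037 against control ASO, and 1.16, SE 0.24, adjusted p = 0.014 against DPBS). Bst2, also called tetherin, holds budding virus at the cell surface. It was at 65.2, 86.4, 66.9 and 70.9 CPM with DPBS, 93.0, 69.7, 64.7 and 68.3 with control ASO and 125, 137, 105 and 140 with Upf3b-ASO. The Upf3b-ASO livers did not overlap with any other, at a log2 fold change of 0.78 (SE 0.13, adjusted p = 0.0041) against control ASO and 0.81 (SE 0.13, adjusted p = 0.0033) against DPBS.

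For Rsad2 and Mx2 the highest of the 12 livers was control ASO replicate 3. Rsad2, which encodes viperin, an enzyme that makes a chain-terminating nucleotide, was at 7.23, 10.8, 7.23 and 9.27 CPM with DPBS, 21, 10.2, 87.0 and 9.74 with control ASO and 56.8, 27.8, 37.2 and 36.7 with Upf3b-ASO. The other control ASO livers lay below all Upf3b-ASO livers. The log2 fold change came to 2.20 (SE 0.63, with an edgeR adjusted p = 0.055) against DPBS, 0.44 (SE 0.61, adjusted p = 0.68) against control ASO and 1.60 without that liver (adjusted p = 0.0029). Mx2, an interferon-induced dynamin-like GTPase, was at 61.6 CPM in control ASO replicate 3, at 4.78 to 6.79 in the other control ASO livers, at 3.02 to 5.77 with DPBS and at 12.5 to 21.6 with Upf3b-ASO. Against control ASO it stood at -0.12 on the log2 scale (SE 0.74, adjusted p = 0.93) with that liver and at 1.46 (adjusted p = 8.0e-04) without it. Ifit2, a relative of Ifit1, was called against neither reference (log2 0.22 against control ASO and 1.2 against DPBS, adjusted p = 0.7 and 0.054). Eif2ak2, the kinase that stops translation on double-stranded RNA, also was not (0.26 and 0.30, adjusted p = 0.14 and 0.12).

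Of the 5 members under the filter, Mx1 was at 1.82 to 2.70 CPM with DPBS, 2.21 to 9.59 with control ASO and 4.97 to 8.53 with Upf3b-ASO, and its highest liver was again control ASO replicate 3. Oas1a was at 1.01 to 5.32, 2.59 to 6.50 and 5.60 to 11.2 CPM, and Oas1g at 1.11 to 2.11, 1.08 to 4.32 and 2.33 to 3.80 CPM, in the same order of groups. These neighbours are near-identical copies, and how their reads were divided is uncertain. Oas2, at 1.40 to 4.37 CPM, and the exonuclease gene Isg20, at 0.474 to 2.24 CPM over all livers, overlapped between all groups.

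**Figure D4:**
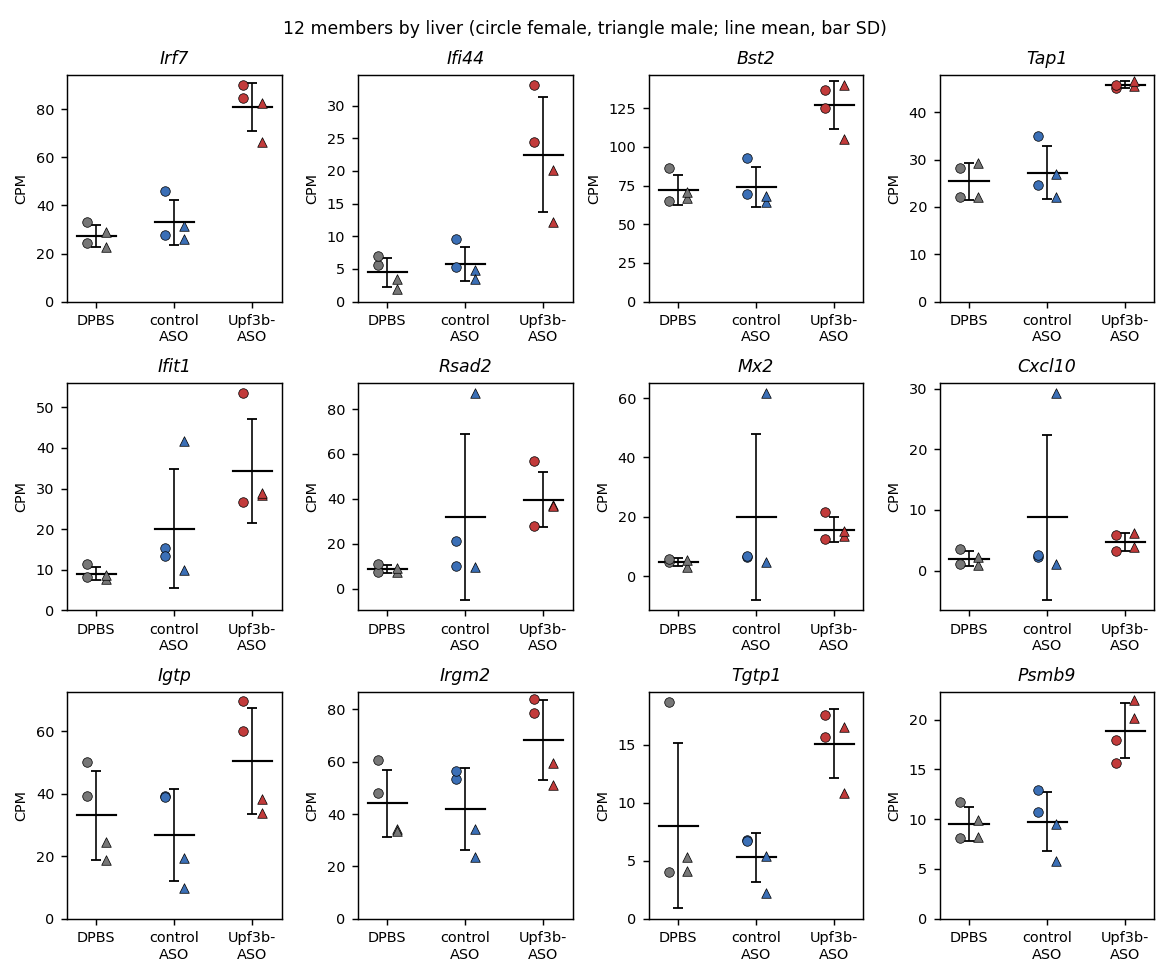
CPM of 12 members in each liver by group, circles for females and triangles for males, with the group mean (line) and SD (bar). In the top row the Upf3b-ASO livers do not overlap with the others, in the middle row 1 control ASO male lies far above its group, and in Igtp and Irgm2 the females lie above the males in each group.

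Ifi44 had the largest fold change of the tested members against each reference. It reached a TPM of 5 in 1 of the 8 reference livers and passed the filter only with the Upf3b-ASO livers counted. The product of Ifi44 is a cytoplasmic protein of uncertain function. The gene was at 5.67, 6.92, 1.95 and 3.5 CPM with DPBS, 9.57, 5.26, 4.90 and 3.53 with control ASO and 33.2, 24.5, 12.2 and 20.2 with Upf3b-ASO. The Upf3b-ASO livers were apart from all others, with a log2 fold change of 1.96 (SE 0.26, with an edgeR adjusted p = 0.0011) against control ASO and 2.36 (SE 0.26, adjusted p = 4.0e-04) against DPBS. Ifi27, which encodes a small hydrophobic protein, was at 54.0, 69.6, 56.9 and 65.8 CPM with DPBS, 73.9, 52.9, 52.0 and 59.0 with control ASO and 114, 105, 96.2 and 100 with Upf3b-ASO. It also did not overlap (log2 0.81, SE 0.12, adjusted p = 0.0024 against control ASO and 0.75, SE 0.12, adjusted p = 0.0036 against DPBS). Ifi35, which pairs with the protein Nmi, was at 21.4, 25.7, 19.8 and 24.6 CPM with DPBS, 21.8, 21.9, 19.4 and 23.2 with control ASO and 32.8, 27.7, 28.6 and 32.2 with Upf3b-ASO. Its change was small and did not overlap (log2 0.49, SE 0.11, adjusted p = 0.017 against control ASO and 0.41, SE 0.11, adjusted p = 0.04 against DPBS).

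Rtp4, a receptor-transporting protein, was at 9.11, 10.0, 6.81 and 7.89 CPM with DPBS, 15.8, 10.5, 14.5 and 7.05 with control ASO and 24.2, 15.3, 14.9 and 15.8 with Upf3b-ASO. It was called against DPBS alone (log2 1.05, SE 0.22, edgeR adjusted p = 0.015; 0.55, SE 0.22, adjusted p = 0.14 against control ASO). Trim30a and the apoptosis-associated factor Xaf1 were not called against either, and Xaf1 was called without control ASO replicate 3 (log2 0.94, adjusted p = 0.018). Parp9, a macrodomain protein that works with the ubiquitin ligase Dtx3l, was at 67.8, 72.9, 55.8 and 66.0 CPM with DPBS, 74.8, 74.5, 79.1 and 66.1 with control ASO and 120, 94.4, 94.9 and 101 with Upf3b-ASO. It did not overlap and was called against control ASO (log2 0.48, SE 0.10, adjusted p = 0.012) and DPBS (0.65, SE 0.10, adjusted p = 0.0027). Parp14, a mono-ADP-ribosyltransferase, had log2 fold changes of 0.58 and 0.51 that missed the threshold (adjusted p = 0.051 and 0.087).

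The immunity-related GTPases, which attack the vacuoles of intracellular parasites, had 5 of 7 members called higher against control ASO, 6 of 7 without control ASO replicate 3, and 3 of 7 against DPBS. Ifi47 was at 19.0, 24.8, 11.6 and 12.3 CPM with DPBS, 17.8, 14.3, 15.6 and 12.5 with control ASO and 42.3, 32.7, 38.8 and 39.7 with Upf3b-ASO. Its Upf3b-ASO livers were apart from all others (log2 1.36, SE 0.20, edgeR adjusted p = 0.0019 against control ASO and 1.23, SE 0.20, adjusted p = 0.0034 against DPBS). Irgm1, a regulatory GTPase of the family, was at 40.0, 53.8, 30.2 and 42 CPM with DPBS, 48.5, 48.6, 58.7 and 36.4 with control ASO and 79.8, 69.7, 66.3 and 59.8 with Upf3b-ASO. It was called against DPBS (log2 0.74, SE 0.17, adjusted p = 0.021) and missed the threshold against control ASO (0.51, SE 0.17, adjusted p = 0.078), although no Upf3b-ASO liver overlapped with a reference liver. Iigp1, an effector GTPase and the most abundant of the 7 per transcript length, was at 496, 574, 410 and 336 CPM with DPBS, 458, 498, 275 and 428 with control ASO and 688, 594, 566 and 633 with Upf3b-ASO. Its lowest value was that of control ASO replicate 3, and it was called against control ASO (log2 0.60, SE 0.15, adjusted p = 0.033) and not against DPBS (0.48, SE 0.15, adjusted p = 0.084).

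The 4 GTPases with the paired GAS and ISRE cores were each lowest of their group in control ASO replicate 3. Igtp was at 39.2, 50.1, 18.8 and 24.4 CPM with DPBS, 39.3, 38.8, 9.87 and 19.3 with control ASO and 69.7, 60, 38.4 and 33.9 with Upf3b-ASO. In each group both females lay above both males, and the groups overlapped across sexes. The log2 fold change came to 1.01 (SE 0.20, with an edgeR adjusted p = 0.011) against control ASO, 0.81 without replicate 3 (adjusted p = 6.4e-04), and 0.64 (SE 0.20, adjusted p = 0.072) against DPBS. Irgm2, another regulatory GTPase, was at 48.0, 60.7, 34.4 and 33.7 CPM with DPBS, 53.3, 56.4, 23.4 and 34.2 with control ASO and 83.8, 78.6, 59.5 and 51.3 with Upf3b-ASO. It showed the same split by sex and was called against both (log2 0.75, SE 0.13, adjusted p = 0.0064 against control ASO and 0.64, SE 0.13, adjusted p = 0.013 against DPBS). The annotated spans of Igtp and Irgm2 overlap on the same strand, and whether reads were divided between them was not tested. Tgtp1 was at 4.01, 18.7, 4.09 and 5.35 CPM with DPBS, 6.83, 6.73, 2.23 and 5.38 with control ASO and 17.6, 15.7, 16.5 and 10.8 with Upf3b-ASO. DPBS replicate 2 lay above every Upf3b-ASO liver, and only the difference from control ASO was called (log2 1.57, SE 0.43, adjusted p = 0.045). Tgtp2, at 2.67 to 11.2, 5.33 to 10.8 and 8.79 to 11.8 CPM in the same order of groups, was not called (0.51 against each, adjusted p = 0.29 and 0.36). Tgtp1 and Tgtp2 are near-identical, so their reads may have been divided differently between livers.

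Among the antigen processing genes, 2 of 5 were called higher against control ASO and 3 of 5 against DPBS. Tap1, which encodes a subunit of the peptide transporter of the endoplasmic reticulum, was at 22, 28.3, 22 and 29.2 CPM with DPBS, 35.0, 24.6, 27.0 and 22.1 with control ASO and 45.1, 45.7, 45.6 and 46.7 with Upf3b-ASO. The Upf3b-ASO livers were close to each other and apart from all others (log2 0.76, SE 0.15, edgeR adjusted p = 0.0093 against control ASO and 0.85, SE 0.15, adjusted p = 0.0052 against DPBS). Psmb9, a catalytic subunit of the immunoproteasome, was at 8.12, 11.7, 8.23 and 9.96 CPM with DPBS, 12.9, 10.7, 5.77 and 9.56 with control ASO and 17.9, 15.6, 20.2 and 22 with Upf3b-ASO. It too was apart (log2 0.97, SE 0.22, adjusted p = 0.02 against control ASO and 1.0, SE 0.22, adjusted p = 0.018 against DPBS). Psmb8, another such subunit, was at 27.6, 31.6, 19.5 and 22.3 CPM with DPBS, 38.7, 29.8, 17.8 and 23.1 with control ASO and 38.0, 40.2, 35.9 and 38.3 with Upf3b-ASO. It overlapped with control ASO replicate 1 and was called against DPBS only (log2 0.62, SE 0.15, adjusted p = 0.029; 0.52, SE 0.15, adjusted p = 0.053 against control ASO). Psmb10 and Tap2 were not called (0.03 and 0.26 against control ASO, adjusted p = 0.86 and 0.12).

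The chemokines that attract activated T cells were called against neither reference over all livers. Cxcl10 was at 29.2 CPM in control ASO replicate 3 and at 1.08 to 2.55 in the rest of its group, 0.948 to 3.61 with DPBS and 3.15 to 6.19 with Upf3b-ASO. Its log2 fold change against control ASO turned from -0.63 (SE 0.89, with an edgeR adjusted p = 0.68) to 1.35 without that liver (adjusted p = 0.054). Against DPBS it was called in the fit of these 2 groups alone, where 13.4% of all tested genes were called higher. Cxcl9 (log2 0.73, SE 0.48, adjusted p = 0.34 against control ASO) ran the other way in that liver, which at 2.96 CPM was the lowest of the 12, while DPBS replicate 2 was the highest at 21.7 CPM.

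Of the 42 tested members, control ASO replicate 3 was above the other 3 control ASO livers for 14 and below them for 18. It was more than 2-fold above their mean for 9 members and more than 2-fold below it for 6. The highest ratios were those of Cxcl10 (14.8 times the mean of the other 3), Mx2 (10.4) and Rsad2 (6.37), and the lowest were those of Igtp (0.304), Tgtp1 (0.354) and Cxcl9 (0.361). The part of that liver's condition in these values was not tested.

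**Figure D5:**
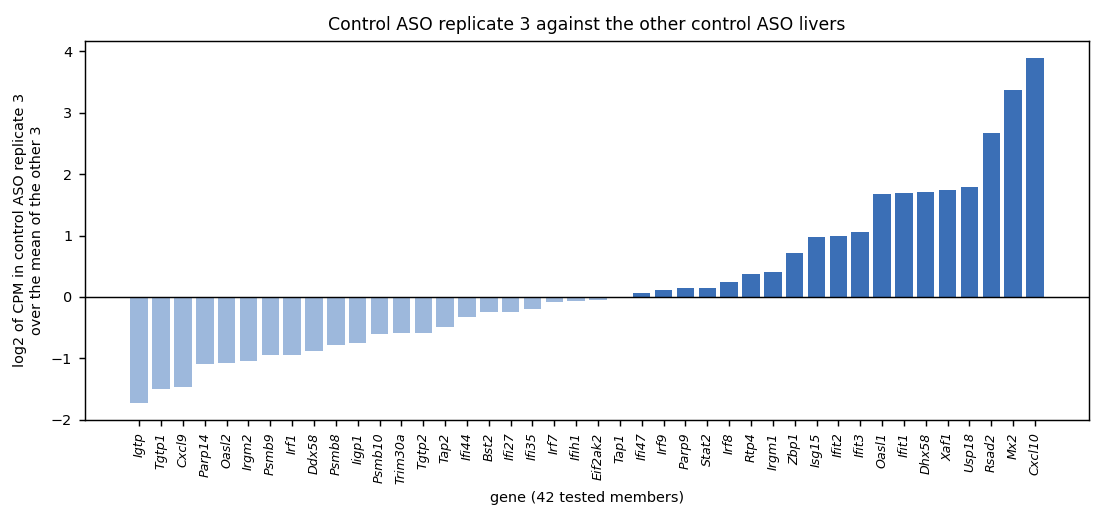
Log2 of the CPM of each tested member in control ASO replicate 3 over the mean of the other 3 control ASO livers, sorted. Cxcl10, Mx2 and Rsad2 are at the high end, and Igtp, Tgtp1 and Cxcl9 at the low end.

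Sex moved many members, with females higher. In the fit with sex and treatment, 10 of the 42 were called lower in males (23.8%), beside 5.73% of all tested genes, and none was called higher, beside 4.3%. No member was higher in males at an unadjusted p below 0.05, beside 980 of 8846 tested genes, or by DESeq2 or limma. The 10 were Igtp, Irgm2, Ifi44, Ifih1, Ddx58, Oasl2, Psmb8, Psmb10, Parp14 and Trim30a, of which 6 were also called higher with Upf3b-ASO against one reference or both. Leaving out control ASO replicate 3 gave 15 called lower in males, while the number among all 8846 tested genes went from 507 to 1021. Igtp averaged 49.5 ± 13 CPM in females and 24.1 ± 10.5 in males (SD, n = 6 each; log2 -1.10, SE 0.16, edgeR adjusted p = 0.0017). Ddx58, which was not called between treatments, averaged 58.7 ± 9.63 CPM in females and 39.1 ± 6.38 in males (log2 -0.59, SE 0.12, adjusted p = 0.0093).

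No interaction of sex with treatment was called for any member, beside 0% of all tested genes. At an unadjusted p below 0.05 there were 3 members, beside 647 of 8846 tested genes. Neither limma nor DESeq2, which gave an adjusted p for 6 members, called any. Fitted within the 6 females, 15 members were called higher against control ASO, beside 5.6% of all tested genes, and 20 against DPBS, beside 4.41%. Of the 15 called over both sexes against control ASO, 7 were among the 15 in females, and of the 21 called against DPBS, 15 were among the 20. Within the 6 males no member was called higher, beside 0% of all tested genes in each comparison. At an unadjusted p below 0.05, 17 and 22 members were higher in males, beside 5.73% and 4.65% of all tested genes, none was lower at that level, and the median log2 fold changes were 0.48 and 0.83 (0.58 and 0.71 in females). The male control ASO group held replicate 3.

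Genes of the same pathway outside the list were examined in the same fit. Of 33 other interferon-stimulated genes, 27 were tested, and 8 were called higher and 1 lower against control ASO, with 11 and 1 against DPBS. Of all tested genes, 4.34% were called higher and 5.95% lower against control ASO, and 3.57% and 5.36% against DPBS. Without control ASO replicate 3, 11 of the 27 were called higher and 2 lower against control ASO, beside 11% and 13.5% of all tested genes. Ifitm3, Lgals3bp and Lgals9 were added to the higher (log2 0.38 to 0.56) and Ifitm2 to the lower (-0.42, adjusted p = 0.0034). The medians of the 27 tested genes over all livers were 0.27 and 0.39 on the log2 scale. Apol9a and Apol9b, neighbouring apolipoprotein L genes with similar sequences, had log2 fold changes of 1.25 (SE 0.16, with an edgeR adjusted p = 0.0011) and 0.94 (SE 0.11, adjusted p = 5.9e-04) against control ASO. Cmpk2, a mitochondrial nucleotide kinase beside Rsad2, rose by 1.19 (SE 0.33, adjusted p = 0.047) and Ube2l6, the conjugating enzyme for Isg15, by 0.75 (SE 0.14, adjusted p = 0.0074). Ddx60 (0.77), Parp12 (0.56), Shisa5 (0.56) and Dtx3l (0.32), the partner of Parp9, were also called higher against control ASO, as they were against DPBS (0.93, 0.64, 0.69 and 0.37). Over all livers, Lgals3bp, Samd9l and Uba7, the activating enzyme for Isg15, were called against DPBS only (0.60, 0.50 and 0.55). Helz2, a helicase-like coactivator, went the other way, at -1.10 (SE 0.11, adjusted p = 2.0e-04) against control ASO and -1.04 (SE 0.11, adjusted p = 2.9e-04) against DPBS. Of 16 MHC class I genes and partners, 3 were called higher against control ASO, H2-Q10 (0.51), H2-T23 (0.34) and Calr (0.45), and 2 against DPBS, H2-Q10 (0.50) and H2-T23 (0.63). Of all tested genes, 4.34% and 3.57% were called higher in these comparisons. Pdia3 (0.39, adjusted p = 0.0045) and Nlrc5 (0.32, adjusted p = 0.035) were also called higher against control ASO without its replicate 3, making 5 of 16, beside 11% of all tested genes. B2m, the light chain of MHC class I, differed by 0.09 (SE 0.09, adjusted p = 0.52) and 0.18 (SE 0.09, adjusted p = 0.25).

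Markers of immune cells were read beside these values. None of the tested markers of Kupffer cells and macrophages (9 of 10 tested) or of monocytes and neutrophils (1 of 6 tested) was called against either reference. The macrophage markers summed to 302 to 540 TPM in the Upf3b-ASO livers, 263 to 743 in the control ASO livers and 251 to 436 in the DPBS livers. The monocyte and neutrophil markers summed to 283 TPM in control ASO replicate 1, which was also the liver with 743 TPM of macrophage markers, and to 46.7 to 88.9 TPM in the other 11 livers. Without that liver 14 members were called higher against control ASO, beside 287 of 8846 tested genes. The 10 markers of T and NK cells summed to 2.78 to 5.91, 2.01 to 7.03 and 2.92 to 9.86 TPM, and the 4 of B cells to 2.14 to 2.92, 1.44 to 3.12 and 1.32 to 2.61 TPM, in the same order, and none of these was expressed enough to be tested. The 4 dendritic cell markers summed to at most 1.97 TPM in any liver. No marker on these lists was at 0 in all livers, and on each the range of the Upf3b-ASO livers overlapped with those of both reference groups. None of the tested markers of hepatocytes (7 tested), endothelial cells (6) or stellate cells (4) was called over all livers either. Leaving out control ASO replicate 3, the endothelial marker Stab2 (log2 -0.36, adjusted p = 0.0078) and the stellate marker Reln (-0.62, adjusted p = 0.026) were called lower against control ASO. The 4 cholangiocyte markers, none of them tested, summed to 8.23 TPM in that liver and to 1.79 to 3.59 TPM in the other 11. The part of other cell types in the members' levels was not tested.

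Upf3b acts in nonsense-mediated decay, so the annotated decay targets among the members' own transcripts were also examined. Of 193 member transcripts, 10, from 8 genes, carry the biotype nonsense_mediated_decay. They held 20.3% ± 1.77 of the TPM of these 8 genes in the Upf3b-ASO livers, 21.7% ± 3.32 in the control ASO livers and 19.6% ± 0.903 in the DPBS livers (SD, n = 4 each). The ranges overlapped, from 18.6% to 22.7%, 19.3% to 26.6% and 18.6% to 20.5%. For single genes the share lay within overlapping ranges of the Upf3b-ASO and control ASO livers in all 8. The smallest p was that of Xaf1, at 35.1% ± 3.21 with Upf3b-ASO and 43.7% ± 4.30 with control ASO (exact permutation test, two-sided, n = 4 each, p = 0.0571, or 0.457 after Benjamini-Hochberg adjustment over 8 genes). The smallest p that 4 against 4 livers allow is 0.029.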

How the data were processed

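RNA from 12 livers (3 groups of 4) was prepared by the authors as total RNA libraries and quantified with Salmon 0.7.2 against Ensembl transcripts of GRCm38.p4, after bcl2fastq 2.17.1.14, per the labels. The deposited tables hold estimated counts and TPM per transcript. Here transcripts were joined to genes by Ensembl identifier (98.1% of 92468 joined), the estimated counts of each gene's transcripts were added up and rounded, and genes that reached a TPM of 5 in 4 or more livers were fitted with edgeR 4.0.16 (TMM, quasi-likelihood test, group and sex). DESeq2 1.42.0, limma 3.58.1 on log2(TPM + 1) or log2(TPM + 0.1), other filters and scalings, and fits without each liver were alternatives. Fits within 1 sex were added after seeing the data. The steps were tested on simulated data.

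The standard error is the log2 fold change divided by the root of the F statistic. Full values are given for members called against either reference, Tgtp2, and the members under the filter by range. The members and lists were chosen with earlier results of these data known. Nothing in the labels says more than that replicates were separate mice. No pair of replicates matched within sampling noise (smallest chi-square per degree of freedom 23.84). Livers with the same replicate number deviated together (correlations of 0.21 to 0.67), as did livers of the same sex with other numbers (mean 0.52 for each). With sex removed the range was -0.11 to 0.16. The 12 libraries held 13277892 to 20387682 counts, and intervals and p-values do not cover errors of read assignment between near-identical genes. Livers of the third ASO group of the study were not analysed here.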

Additional observations from a re-analysis of the deposited data

Results flagged for a closer look

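In each group of 4 livers, the gap between an extreme liver and its nearest neighbour was set against the group's range, with Dixon's 95% critical value for 4 values. Chance alone flags about 1 in 20 independent groups, but the groups here share the same 12 livers, so their number is no test. Of 126 groups (42 members in 3 treatments) 12 passed. Control ASO replicate 3 gave 5 of them: Ifit1 at 41.8 CPM (9.98 to 15.4 in the others), Oasl1 at 27.8 (7.65 to 10.7), Mx2 at 61.6 (4.78 to 6.79), Rsad2 at 87 (9.74 to 21) and Cxcl10 at 29.2 (1.08 to 2.55). Upf3b-ASO replicate 1, a female and the shallowest library, gave Ifit1 at 53.6 CPM (26.6 to 28.9 in the others), Ifit3 at 61.9 (33.2 to 37.1), Irf9 at 66.3 (45.9 to 47.4) and Rtp4 at 24.2 (14.9 to 15.8). DPBS replicate 2, a female, gave Ifit2 at 11.6 CPM (5.51 to 5.93) and Tgtp1 at 18.7 (4.01 to 5.35). Control ASO replicate 1 gave Trim30a at 21.2 CPM (9.3 to 11.1). The part of depth, sex or the condition of these mice in the values was not tested.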

How the results depend on the processing

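Bst2, Ifi27, Ifi44, Ifi47, Irf7 and Tap1 were called against both references in all 10 alternative fits over the 12 livers or 2 groups and in all 8 fits of each comparison that left out 1 liver, but none of them within the 6 males, and against control ASO Bst2 and Tap1 were not called within the 6 females. The 15 members called against control ASO became 9 without sex in the model (210 of 8846 tested genes) or with 2 groups fitted alone (1.66% of all tested genes). They became 7 at an adjusted p below 0.01 and 5 at an unadjusted edgeR p of at most 0.01 and over 2-fold, beside 122 and 65 of all tested genes. The study set the latter cutoffs on a median of p-values computed for each replicate, so its criterion was not repeated here. Within males the 15 became 0. The 21 called against DPBS became 34 with 2 groups alone, where the share of all tested genes called higher went from 3.57% to 13.4%. They became 8 and 13 at the same adjusted and unadjusted thresholds, beside 110 and 67 of all tested genes, and 0 within males. The 10 called lower in males became 28 with limma on TPM at either pseudocount, where the median of all genes itself shifted by -0.29 and -0.31. They became 4 and 1 at those thresholds, beside 227 and 122 of all tested genes. With the replicate number as a block, which pairs livers of the same number across groups, 12 and 19 members were called against control ASO and DPBS. Of all tested genes, 289 and 235 were called higher there. Ifih1, Iigp1, Tgtp1, Oasl1 and Usp18 each lost a call.

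With 1 liver left out, the number called higher against control ASO ranged from 9 (without Upf3b-ASO replicate 4) to 29 (without control ASO replicate 3). Of 8846 tested genes, 177 and 976 were called higher in these fits. Against DPBS the number of members ranged from 11 to 22. It was 11 without DPBS replicate 3, 12 without DPBS replicate 1 or Upf3b-ASO replicate 4, and 22 without DPBS replicate 2. Of all tested genes, 171, 178, 148 and 198 were called higher in these fits, in the same order. The number called lower in males ranged from 5 to 15. It was 5 without DPBS replicate 2, control ASO replicate 1, or Upf3b-ASO replicate 1 or 3, and 6 without DPBS replicate 3 or control ASO replicate 4. Of all tested genes, 334 to 375 were called lower in males in the fits with 5, and 343 and 464 in those with 6. In the fit with 15, without control ASO replicate 3, 1021 were. Interactions ranged from 0 to 18, all 18 without control ASO replicate 4, when replicate 3 was the only control ASO male and 43.7% of all tested genes were called. Members whose groups did not overlap ranged from 13 to 22, the latter without control ASO replicate 3, where the share of all tested genes was 13%. The difference in decay transcript share ranged from -2.25 (without Upf3b-ASO replicate 1) to 0.213 (without control ASO replicate 4) percentage points around a main value of -1.42. Over the 24 members called against either reference and Tgtp2, leaving out 1 liver in turn ended 24 calls and added 12 against control ASO, and ended 48 and added 1 against DPBS. No alternative reversed the direction of any of these members. Against DPBS the call of Oasl1 held in 0 of the 8 fits that left out 1 liver, that of Usp18 in 1 and that of Ifi35 in 2. Against control ASO the call of Tgtp1 held in 2 of 8, and those of Ifih1, Iigp1 and Oasl2 in 3 each. No setting called a member lower with Upf3b-ASO or changed between control ASO and DPBS. With 4 livers a group and 2 of each sex, effects within a sex rest on pairs of livers, and members at a few CPM are limited by depth.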
